A study of Homo sapiens with 6 samples.

Results

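The genes described here encode actin, the proteins that assemble, cut, bundle and pull on actin filaments, the scaffolds that tie filaments to adhesions, and SRF (serum response factor), a transcription factor of many of these genes. They were taken by name from the deposited table, and all 35 named genes were found once each among its 58735 genes. All 6 libraries are labelled as BxPC-3, an established human pancreatic cancer line. In 3 of them the cells had received GSK3326595, a compound that blocks the arginine methyltransferase PRMT5, and in the 3 controls DMSO, the solvent. Neither the dose nor the time of treatment is stated in the labels. The design text speaks of a knockdown, whereas every library label names the inhibitor, so the labels were followed. Nothing ties the libraries of a group to separate cultures, and the p-values then reflect the spread of these libraries alone, which may be technical. In bulk RNA, fewer cells of a type and less RNA per cell cannot be told apart. The comparison asks which transcripts differed when PRMT5 was inhibited.

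Actin exists as free monomers and as filaments, and the balance between them feeds back on transcription. The coactivators MRTFA and MRTFB bind actin monomers and are held inactive by them; when monomers are used up in filaments, they are released and bind SRF. SRF recognises a short DNA element, the CArG box, near the start of genes for actins, actin-binding proteins and SRF itself. At other genes, among them the immediate early genes, SRF works with the ternary complex factors ELK1, ELK3 and ELK4, which are activated by ERK kinases.

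Promoter windows, 250 bases before to 50 bases after a transcript start, were read from RefSeq (GRCh38.p14). The table held 57 windows for 32 members; ACTB, MYL9 and TAGLN had no entry. An exact CArG box on either strand was found in 10 of the 57 windows (17.5%), against 1.29% of all 35116 windows of that length. The windows with a box belonged to 8 members, SRF, FHL2, ACTN1, TPM4, ACTG1, CNN2, FLNA and FILIP1L. This is a description only, since the list was put together with SRF in mind. The boxes of 7 of these genes are shown, since SRF, FHL2 and ACTN1 were lower with the inhibitor and the other 4 were not called. Each line runs 5′ to 3′ along the gene's strand, and capitals mark the CArG box.
SRF (chr6:43171209-43171268, plus strand): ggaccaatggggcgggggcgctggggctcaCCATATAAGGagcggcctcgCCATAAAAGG
FHL2 (chr2:105438575-105438644, minus strand): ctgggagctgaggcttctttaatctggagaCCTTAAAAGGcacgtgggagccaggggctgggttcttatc
FHL2 (chr2:105399071-105399140, minus strand): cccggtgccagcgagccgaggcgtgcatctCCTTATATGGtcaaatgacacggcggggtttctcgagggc
ACTN1 (chr14:68977698-68977767, minus strand): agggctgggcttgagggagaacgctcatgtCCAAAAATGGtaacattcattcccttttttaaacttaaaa
TPM4 (chr19:16067335-16067404, plus strand): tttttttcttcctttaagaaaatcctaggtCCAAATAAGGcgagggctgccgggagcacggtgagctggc
ACTG1 (chr17:81512854-81512923, minus strand): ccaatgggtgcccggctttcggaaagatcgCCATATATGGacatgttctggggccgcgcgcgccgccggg
CNN2 (chr19:1026489-1026558, plus strand): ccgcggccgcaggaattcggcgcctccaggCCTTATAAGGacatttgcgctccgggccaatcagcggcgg
FLNA (chrX:154374689-154374758, minus strand): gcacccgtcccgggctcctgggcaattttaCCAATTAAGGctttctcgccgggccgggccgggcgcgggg
The boxes of SRF began 30 and 10 bases before the start, and SRF was the only gene here with more than 1 box in a window. The box of ACTG1 began 94, that of CNN2 89, that of FLNA 94 and that of TPM4 173 bases before the start. Both FHL2 boxes, 101 and 59 bases before their starts, belong to different starts of the gene, and the ACTN1 box, 171 bases before the start, to 1 of its 4 windows. Among the members with a box, 7 were tested, of which 3 were called lower and 0 higher; of the 22 tested members with windows but no box, 2 were called lower and 3 higher. Of all genes tested 10.0% were called lower and 7.18% higher. Without inhibitor replicate 2, a library that stood apart, the counts were 4 lower and 0 higher with a box and 9 lower and 5 higher without one, against 23.1% lower and 17.5% higher of all genes. The difference between members with and without a box was not tested. The hexamer GGAATG, the element of the TEAD factors that partner YAP, was found on either strand in 13 of the 57 windows (22.8%), against 14.0% of all windows.

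Total reads recovered from the FPKM values ran from 14087260 to 15724750 per library. PRMT5 itself stood at 13.4, 12.8 and 12.1 FPKM in the inhibitor libraries, against 23.2, 24.6 and 26.2 FPKM in DMSO, lower in every inhibitor library (−0.90, adjusted p = 0.00493); a transcript level does not measure the enzyme's activity. Inhibitor replicate 2 stood apart. Across the genes tested its log2 values had r = 0.906 with inhibitor replicate 1 and 0.904 with inhibitor replicate 3, which had r = 0.980 with each other. Mitochondrial transcripts took 11.3% of its reads against 4.703% to 6.03% in the other 5 libraries. Values are therefore also given without it, a choice made after seeing the data. Of 8 epithelial markers KRT19, ESRP1 and CEACAM6 had 0 reads in all libraries and CDH1 and EPCAM were under 1 FPKM on average in both groups. Reads of these defining markers of an epithelial line were absent or near absent, unlike what is known of BxPC-3. The identity of the cells therefore rests on the labels alone. How reads were counted is not stated, and loss of reads in counting was not tested. Of the Arp2/3 complex, which assembles actin, ARPC1B averaged 0.841 FPKM with the inhibitor and 1.15 FPKM in DMSO. ARPC2 of the same complex averaged 20.2 FPKM with the inhibitor and 21.7 FPKM in DMSO. KRT8 averaged 361 ± 67.8 FPKM with the inhibitor and 264 ± 16.1 FPKM in DMSO, KRT18 364 ± 75.2 FPKM with the inhibitor and 255 ± 11.5 FPKM in DMSO and KRT7 103 ± 2.13 FPKM with the inhibitor and 163 ± 12.4 FPKM in DMSO (SD, n = 3 each). Of these 3 only KRT7 was called with all libraries, lower with the inhibitor. Without inhibitor replicate 2 KRT8 and KRT18 were called higher and KRT7 lower, in a fit where 40.6% of all genes were called.

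Among the 35 members, 31 were tested, each above 2 FPKM in all 6 libraries. With the inhibitor SRF, the actin gene ACTB, the crosslinker ACTN1 and the adhesion scaffolds ZYX, FHL2 and PDLIM5 were lower, while the filament binders CNN3 and CALD1 and the myosin heavy chain MYH10 were higher (limma on log2(FPKM + 1), adjusted p under 0.05 by Benjamini-Hochberg over all 13578 genes tested). Of all genes tested 17.2% were called. These 6 falls were 19.4% of the members tested, against 10.0% of all genes tested, and the 3 rises were 9.68%, against 7.18%. A signed value beside an adjusted p is a log2 fold change of inhibitor over DMSO, on the log2(FPKM + 1) scale. The median log2 fold change was −0.32 over the 31 members and −0.05 over all genes tested. Without inhibitor replicate 2 there were 14 falls and 6 rises, 45.2% and 19.4% of the members tested, against 23.1% and 17.5% of all genes, and the median was −0.25. In that fit 40.6% of all genes were called. All 9 member calls held in it. Fewer held without other libraries. Without inhibitor replicates 1 and 3 there were 2 and 4 falls and 1 rise each, and without DMSO replicates 1, 2 and 3 there were 1, 0 and 1 falls and no rise. Calls dropped over all 13578 genes as well, from 2339 with all libraries to 1091 and 1299 without inhibitor replicates 1 and 3. They dropped to 478, 510 and 579 without DMSO replicates 1, 2 and 3. The calls that held were those of ACTN1, FHL2 and MYH10 without inhibitor replicate 1, those of ACTN1, FHL2, ZYX, SRF and CALD1 without inhibitor replicate 3, and that of ACTN1 without DMSO replicate 1 or 3. With no filter 0 members rose and 3 fell, where 2.15% of all genes rose and 2.76% fell (4.91% in all). With limma-voom on recovered reads 4 rose and 6 fell, where 8.01% of all genes rose and 10.8% fell (18.8% in all). In 17 members all 3 inhibitor libraries lay below all 3 DMSO libraries, 54.8% of those tested against 26.7% of all genes, and in 5 they lay above, 16.1% against 19.2%.

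**Figure D1:**
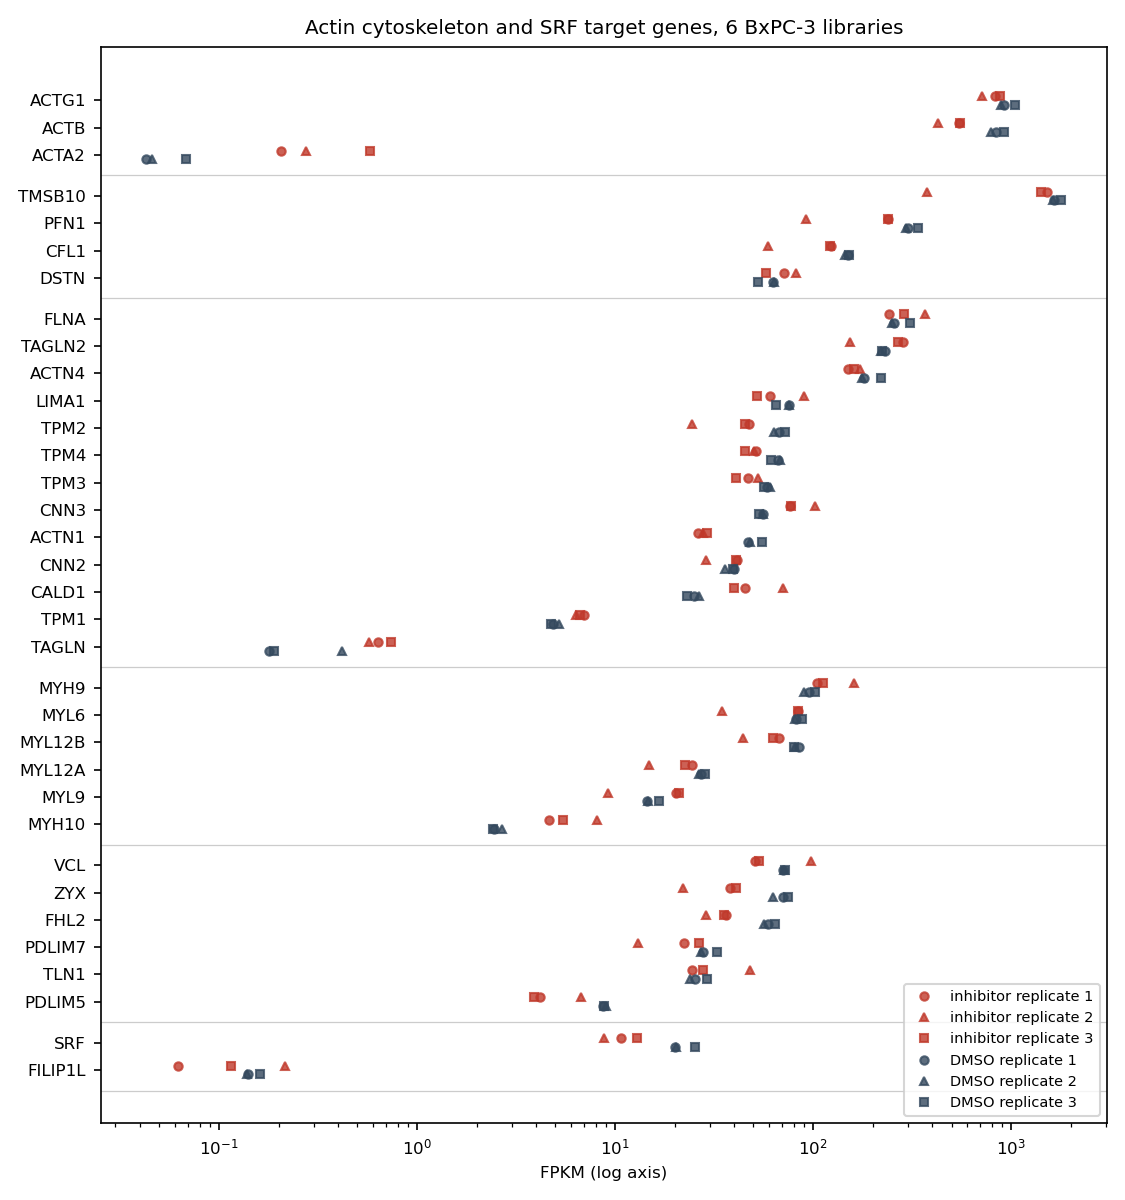
FPKM (log axis) of 34 members in each library, grouped by role, with inhibitor libraries in red above DMSO libraries in dark blue; CNN1, with 0 reads, is not drawn. ACTB, ACTN1, ZYX, FHL2, PDLIM5 and SRF sit to the left of DMSO in all 3 inhibitor libraries and CNN3, CALD1 and MYH10 to the right.

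The actins are the subunits of the filament. Of the 2 tested 1 fell (50%), where 10.0% of all genes fell. ACTB, the cytoplasmic beta-actin (ENSG00000075624, chromosome 7, 5527147 to 5563784, hg38), stood at 546, 428 and 552 FPKM in inhibitor replicates 1, 2 and 3, against 837, 789 and 923 FPKM in DMSO replicates 1, 2 and 3 (log2 fold change −0.74, SE 0.16, adjusted p = 0.0274). The groups did not overlap, and inhibitor replicate 2 was the lowest library. Without that library the log2 fold change was −0.63 (adjusted p = 0.00228). ACTB was called in 1 of 6 fits lacking 1 library each (adjusted p 0.00228 to 0.12). ACTG1, the cytoplasmic gamma-actin, stood at 832, 709 and 874 FPKM in the inhibitor libraries, against 922, 889 and 1046 FPKM in DMSO, again with no overlap, but was not called (log2 fold change −0.24, SE 0.15, adjusted p = 0.307). ACTA2, the smooth muscle alpha-actin and a marker of contractile cells, was almost silent, at 0.205, 0.276 and 0.577 FPKM in the inhibitor libraries, against 0.04297, 0.0459 and 0.0681 FPKM in DMSO. These values are 10, 11 and 28 reads in the inhibitor libraries and 2, 2 and 3 reads in DMSO, higher in all 3 inhibitor libraries. The gene did not reach the filter, and with no filter it was not called (adjusted p = 0.131). The table's coordinates of ACTA2 overlap on the opposite strand with FAS, which stood at 1.58, 1.97 and 1.79 FPKM with the inhibitor and 4.31, 4.14 and 3.89 FPKM in DMSO (the use of strand in counting is not stated).

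Beta-actin was also a smaller part of the summed cytoplasmic actin FPKM within each inhibitor library. Of the FPKM summed over ACTB and ACTG1, ACTB made up 39.6, 37.7 and 38.7% with the inhibitor, against 47.6, 47.01 and 46.9% in DMSO. The difference of −8.49 percentage points was larger than the spread in either group (SD 0.988 with the inhibitor and 0.387 in DMSO, n = 3 each; exact permutation test, two-sided, p = 0.1, the smallest that 3 against 3 can give), and inhibitor replicate 2 did not stand apart. Principal transcripts of the pair have similar lengths in GENCODE 29, 1921 and 2256 bases. Of the ACTB transcript, 10.3% of 50-base windows also occur in transcripts of other genes, among them ACTBP2 and POTEE, and of ACTG1 3.58%, so a small share of their reads could have been assigned elsewhere.

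Such shares were computed for 7 pairs of paralogs, chosen after values had been seen; adjusted over the 7, the smallest p is 0.14. Of the sum of ACTN1 and ACTN4, ACTN1 made up 14.8, 13.9 and 15.3% with the inhibitor, against 20.5, 21.4 and 20.1% in DMSO. Of the sum of MYH10 and MYH9, MYH10 made up 4.23, 4.81 and 4.65% with the inhibitor, against 2.51, 2.895 and 2.32% in DMSO, higher in each inhibitor library. Of the sum of CNN3 and CNN2, CNN3 made up 64.9, 78.2 and 65.5% with the inhibitor, against 58.4, 60.7 and 57.6% in DMSO. For these 3 pairs, too, the groups did not overlap (exact permutation test, two-sided, p = 0.1 each, n = 3 each). Of the sum of MYL12A and MYL12B, MYL12A made up 26.6, 24.98 and 26.4% with the inhibitor, against 24.2, 24.5 and 26.3% in DMSO, and these groups overlapped (exact permutation test, p = 0.2). FPKM divides by listed gene length, which differs more within some pairs (10626 bases for ACTN1 and 6098 for ACTN4). The level of a share is therefore not a share of transcript numbers. The remaining pairs differ more in transcript length. The share of CFL1 in CFL1 and DSTN was 63.4, 41.8 and 67.7% with the inhibitor, against 70.6, 69.6 and 74.3% in DMSO (exact permutation test, p = 0.1). That of PDLIM5 in PDLIM5 and PDLIM7 was 15.8, 34.03 and 12.7% with the inhibitor, against 23.7, 24.8 and 21.3% in DMSO (exact permutation test, p = 0.9). In both of these pairs inhibitor replicate 2 was far from the other 2 inhibitor libraries. It was also far from them for CNN3 and CNN2, though their principal transcripts have 2165 and 2179 bases. The SD of that share was 7.48 with the inhibitor and 1.63 in DMSO, so the size of that difference rests in part on replicate 2.

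**Figure D2:**
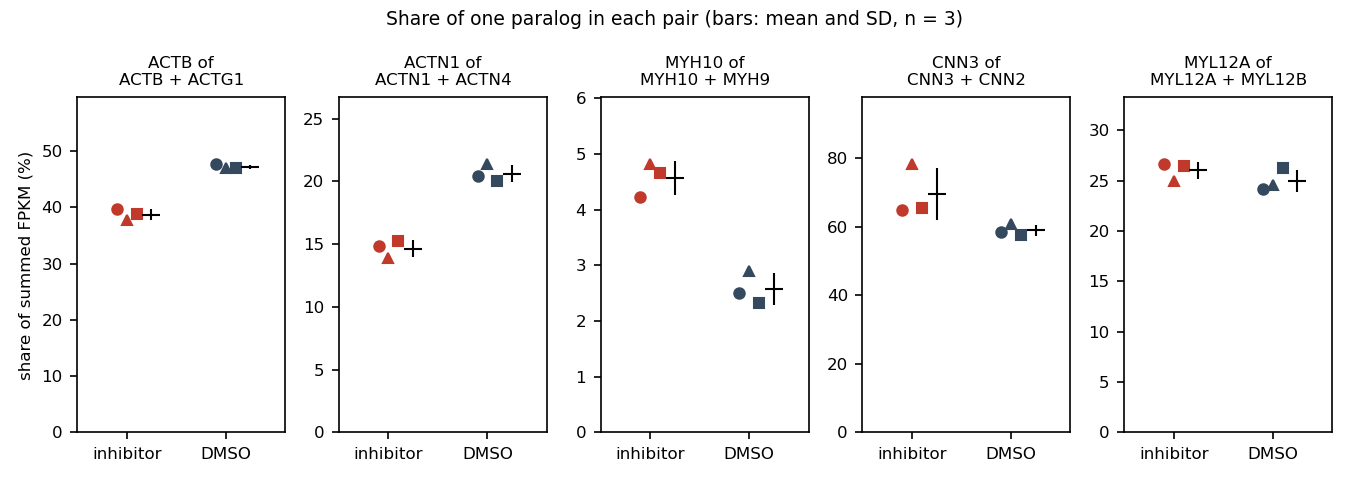
Share of the first-named paralog in the summed FPKM of 5 pairs of similar principal transcript length, in percent, in inhibitor (left) and DMSO (right) libraries; circles, triangles and squares are replicates 1, 2 and 3, and bars are mean and SD. FPKM divides by listed gene length, which differs more in some pairs (10626 bases for ACTN1 and 6098 for ACTN4). ACTB and ACTN1 shares are lower and MYH10 and CNN3 shares higher in all inhibitor libraries, while MYL12A shares overlap.

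Of the 4 proteins that bind actin monomers or cut filaments, none was called by limma with all libraries, and PFN1 and CFL1 fell without inhibitor replicate 2. In that fit 23.1% of all genes fell. TMSB10, a thymosin that holds monomers and the most abundant member by FPKM, stood at 1518, 375 and 1414 FPKM in the inhibitor libraries, against 1652, 1629.7 and 1791 FPKM in DMSO (log2 fold change −0.86, SE 0.53, adjusted p = 0.295). Inhibitor replicates 1 and 3 lay just below DMSO and replicate 2 far below, so the size of the change rests on that library; without it the log2 fold change was −0.21 (adjusted p = 0.0505). PFN1, profilin, which feeds monomers to growing filament ends, stood at 239, 92.3 and 239.6 FPKM in the inhibitor libraries, against 302, 295 and 337 FPKM in DMSO (−0.83, adjusted p = 0.17). The same pattern held, with no overlap and replicate 2 the lowest, and without replicate 2 PFN1 was called at −0.38 (adjusted p = 0.00951). CFL1, cofilin, which severs filaments, averaged 101 ± 36.5 FPKM with the inhibitor and 149 ± 3.38 FPKM in DMSO (SD, n = 3 each; −0.63, adjusted p = 0.178) and was called without replicate 2 at −0.28 (adjusted p = 0.00822). Its relative DSTN, destrin, stood at 71.6, 82.4 and 57.8 FPKM in the inhibitor libraries, against 62.5, 63.5 and 52.5 FPKM in DMSO (0.23, adjusted p = 0.358), with overlapping groups. Without replicate 2 DSTN was at 0.12 (adjusted p = 0.484), and its share with CFL1 is given above.

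Of the 12 tested members that bind along or crosslink filaments 1 fell and 2 rose, against 5 that fell and 4 that rose without inhibitor replicate 2. With all libraries 8.33% of them fell and 16.7% rose, where 10.0% of all genes fell and 7.18% rose. Without replicate 2, 41.7% fell and 33.3% rose, against 23.1% and 17.5% of all genes. Alpha-actinins crosslink filaments, and ACTN1 fell. ACTN1 (ENSG00000072110, chromosome 14, 68874143 to 68979440) stood at 26.3, 27.7 and 29.02 FPKM in the inhibitor libraries, against 46.6, 47.8 and 55.3 FPKM in DMSO (log2 fold change −0.83, SE 0.12, adjusted p = 0.00832). All 3 inhibitor libraries agreed closely and none overlapped DMSO. It was called in 5 of 6 fits lacking 1 library each (adjusted p 0.00191 to 0.0506), and the call was lost without DMSO replicate 2. ACTN4, the more abundant actinin, stood at 151, 172 and 161 FPKM in the inhibitor libraries, against 181, 176 and 220.4 FPKM in DMSO, below DMSO in each inhibitor library but not called (−0.25, adjusted p = 0.252). FLNA, filamin A, which links filaments at angles, stood at 242, 369 and 287 FPKM in the inhibitor libraries, against 255, 251 and 309 FPKM in DMSO (0.13, adjusted p = 0.678), with replicate 2 highest of all libraries; its sign turned without that library (−0.04, adjusted p = 0.829). LIMA1, which stabilises filaments, stood at 60.5, 90.4 and 52.2 FPKM in the inhibitor libraries, against 76.0, 75.95 and 64.8 FPKM in DMSO (−0.13, adjusted p = 0.708); inhibitor replicates 1 and 3 were below DMSO and replicate 2 above it, and without replicate 2 it was called lower at −0.35 (adjusted p = 0.0372).

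Tropomyosins, which wind along the filament and set which motors and severing proteins reach it, were not called with all libraries. TPM2 stood at 47.7, 24.5 and 45.1 FPKM in the inhibitor libraries, against 67.3, 63.6 and 72.03 FPKM in DMSO (−0.83, adjusted p = 0.0716). TPM3 stood at 46.9, 52.7 and 40.9 FPKM in the inhibitor libraries, against 58.5, 60.4 and 56.4 FPKM in DMSO (−0.32, adjusted p = 0.134), and TPM4 at 51.4, 50.5 and 45.2 FPKM in the inhibitor libraries, against 66.8, 67.7 and 61.6 FPKM in DMSO (−0.41, adjusted p = 0.0531). In each of these 3 genes every inhibitor library lay below every DMSO library. TPM1, the lowest of them by FPKM, stood at 6.97, 6.36 and 6.67 FPKM in the inhibitor libraries, against 4.87, 5.19 and 4.72 FPKM in DMSO (0.37, adjusted p = 0.051) and lay above DMSO in every inhibitor library. All 4 passed the threshold without replicate 2, as did 40.6% of all genes. TPM1 was then at 0.40 (adjusted p = 0.00876), TPM2 at −0.53 (adjusted p = 0.00317), TPM3 at −0.41 (adjusted p = 0.00919) and TPM4 at −0.43 (adjusted p = 0.00895). TPM1 took 4.56%, 4.75% and 4.84% of the summed tropomyosin FPKM in the inhibitor libraries, against 2.47%, 2.64% and 2.42% in DMSO. The level of this share is understated, since FPKM divides by the listed gene length. That is 12876 bases for TPM1, whose principal transcript has 1049, against 3248 and 1392 bases for TPM2. In inhibitor replicate 2 TPM1 had 1096 reads and TPM2 1064. For TPM4, 22.9% of the 50-base windows of the principal transcript occur in other genes' transcripts, so its reads may be divided.

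Calponins, transgelins and caldesmon bind along filaments and are known from contractile cells. CALD1, caldesmon (ENSG00000122786, chromosome 7, 134744252 to 134970728), stood at 45.1, 70.6 and 39.7 FPKM in the inhibitor libraries, against 24.9, 26.5 and 23.2 FPKM in DMSO (log2 fold change 0.99, SE 0.22, adjusted p = 0.0292). The groups did not overlap; replicate 2 was the highest, and the log2 fold change without it was 0.75 (adjusted p = 0.00203). CNN3, the acidic calponin, stood at 76.6, 103 and 77.5 FPKM in the inhibitor libraries, against 55.8, 55.6 and 53.2 FPKM in DMSO (log2 fold change 0.62, SE 0.15, adjusted p = 0.0349), with no overlap and 0.48 (adjusted p = 0.00181) without replicate 2. CALD1 was called in 2 of 6 fits lacking 1 library each (adjusted p 0.00203 to 0.112), and CNN3 in 1 of 6 fits lacking 1 library each (adjusted p 0.00181 to 0.134). CNN2, another non-muscle calponin, averaged 36.9 ± 7.16 FPKM with the inhibitor and 38.3 ± 2.04 FPKM in DMSO (SD, n = 3 each) and was not called (−0.07, adjusted p = 0.799); its sign turned without replicate 2 (0.10, adjusted p = 0.273). TAGLN2 stood at 286, 154 and 269 FPKM in the inhibitor libraries, against 229.9, 219 and 223 FPKM in DMSO (0.02, adjusted p = 0.952); replicates 1 and 3 were above DMSO and replicate 2 below it, and without replicate 2 it was called higher at 0.30 (adjusted p = 0.0083).

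The smooth muscle members were at or near the floor. CNN1, smooth muscle calponin, had 0 reads in all 6 libraries, which allows up to 3 reads over the 6, or a mean of 0.0115 FPKM, counting error alone considered. TAGLN, transgelin, a common SRF reporter, stood at 0.639, 0.572 and 0.736 FPKM in the inhibitor libraries, against 0.1795, 0.418 and 0.1897 FPKM in DMSO, from 41, 30 and 47 reads with the inhibitor and 11, 24 and 11 reads in DMSO. Like ACTA2 it was higher in all 3 inhibitor libraries, did not reach the filter and was not called without the filter (adjusted p = 0.124). Of 7 other smooth muscle markers only SMTN and DES were tested, and SMTN fell (−0.85, adjusted p = 0.0189). The 7 summed to 4.71 to 6.42 FPKM with the inhibitor and 8.66 to 10.7 FPKM in DMSO, nearly all from SMTN and DES, and MYOCD, the muscle partner of SRF, averaged 0.00968 FPKM with the inhibitor and 0.0220 FPKM in DMSO. Of 8 fibroblast markers COL1A2, LUM and PDGFRA had 0 reads in all libraries, and 2 were tested, COL1A1 and PDGFRB. The list summed to 10.3 to 15.5 FPKM with the inhibitor and 5.12 to 5.72 FPKM in DMSO, nearly all from these 2 genes. COL1A1 stood at 8.798, 5.39 and 10.4 FPKM in the inhibitor libraries, against 4.49, 4.23 and 4.27 FPKM in DMSO and was not called (0.74, adjusted p = 0.0618), and PDGFRB rose (1.47, adjusted p = 0.00267). Without inhibitor replicate 2 both COL1A1 and PDGFRB were called higher, where 17.5% of all genes rose. The part of either list in these results was not tested.

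Non-muscle myosin II is the motor that pulls on filaments, built of heavy chains and of regulatory and essential light chains. Of its 6 members, all tested, 1 rose and 0 fell, against 2 that rose and 1 that fell without inhibitor replicate 2. With all libraries 16.7% of them rose, where 7.18% of all genes rose and 10.0% fell. Without replicate 2, 33.3% rose and 16.7% fell, against 17.5% and 23.1% of all genes. MYH10, the heavy chain of myosin IIB (ENSG00000133026, chromosome 17, 8474205 to 8630761), stood at 4.62, 8.13 and 5.49 FPKM in the inhibitor libraries, against 2.44, 2.69 and 2.43 FPKM in DMSO (log2 fold change 0.98, SE 0.19, adjusted p = 0.0204). Every inhibitor library was above every DMSO library, and without replicate 2 the log2 fold change was 0.78 (adjusted p = 0.00258). It was called in 2 of 6 fits lacking 1 library each (adjusted p 0.00258 to 0.0924). NDEL1 overlaps MYH10 on the opposite strand and was lower in every inhibitor library, at 8.87, 6.56 and 8.19 FPKM with the inhibitor and 13.4, 13.4 and 13.8 FPKM in DMSO. MYH9, the heavy chain of myosin IIA, stood at 105, 161 and 112 FPKM in the inhibitor libraries, against 94.8, 90.2 and 102 FPKM in DMSO (0.37, adjusted p = 0.211), also without overlap, but was called neither here nor without replicate 2 (0.18, adjusted p = 0.0997). Of the regulatory light chains MYL12B stood at 67.4, 44.3 and 62.5 FPKM in the inhibitor libraries, against 85.1, 81.2 and 79.99 FPKM in DMSO (−0.51, adjusted p = 0.0916). MYL12A stood at 24.5, 14.8 and 22.5 FPKM in the inhibitor libraries, against 27.1, 26.4 and 28.5 FPKM in DMSO (−0.42, adjusted p = 0.174). Both lay below DMSO throughout, and MYL12B was called without replicate 2 at −0.33 (adjusted p = 0.00903), MYL12A not (−0.21, adjusted p = 0.0528). The transcripts of this pair share 6.44% of the 50-base windows of MYL12A, so reads may move between them. MYL9, the light chain also used by smooth muscle, stood at 20.4, 9.16 and 21.1 FPKM in the inhibitor libraries, against 14.5, 14.7 and 16.7 FPKM in DMSO (0.05, adjusted p = 0.918); replicates 1 and 3 were above DMSO, replicate 2 below it, and without replicate 2 MYL9 was called higher at 0.42 (adjusted p = 0.0097). MYL6, the essential light chain, stood at 83.6, 34.6 and 83.8 FPKM in the inhibitor libraries, against 82.01, 80.8 and 88.0 FPKM in DMSO (−0.41, adjusted p = 0.428) and gave 0.00 (adjusted p = 0.976) without replicate 2.

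Of 6 adhesion proteins and LIM-domain scaffolds 3 fell and 0 rose, and 4 fell without inhibitor replicate 2. These falls were 50% and 66.7% of them, where 10.0% and 23.1% of all genes fell. ZYX, zyxin, which is recruited to strained filaments (ENSG00000159840, chromosome 7, 143381080 to 143391111), stood at 37.9, 22.1 and 40.6 FPKM in the inhibitor libraries, against 70.6, 62.8 and 74.7 FPKM in DMSO (log2 fold change −1.07, SE 0.24, adjusted p = 0.0295). No library overlapped, and without replicate 2 the log2 fold change was −0.80 (adjusted p = 0.00169). FHL2, a LIM-only cofactor and itself an SRF target (ENSG00000115641, chromosome 2, 105357712 to 105438513), stood at 36.2, 28.8 and 35.5 FPKM in the inhibitor libraries, against 58.9, 56.8 and 63.9 FPKM in DMSO (log2 fold change −0.82, SE 0.13, adjusted p = 0.0116). Its groups did not overlap, and without replicate 2 the log2 fold change was −0.72 (adjusted p = 0.00118). PDLIM5, a PDZ and LIM scaffold on alpha-actinin (ENSG00000163110, chromosome 4, 94451857 to 94668227), stood at 4.19, 6.75 and 3.88 FPKM in the inhibitor libraries, against 8.65, 8.97 and 8.84 FPKM in DMSO (log2 fold change −0.76, SE 0.19, adjusted p = 0.0408). Here replicate 2 lay between the other inhibitor libraries and DMSO, and without it the fall was larger, −0.96 (adjusted p = 0.000533). ZYX was called in 2 of 6 fits lacking 1 library each (adjusted p 0.00169 to 0.112), FHL2 in 3 of 6 fits lacking 1 library each (adjusted p 0.00118 to 0.0669) and PDLIM5 in 1 of 6 fits lacking 1 library each (adjusted p 0.000533 to 0.136). PDLIM7 was below DMSO in every inhibitor library, averaged 20.6 ± 6.88 FPKM with the inhibitor and 29.3 ± 2.95 FPKM in DMSO (SD, n = 3 each) and was not called (−0.53, adjusted p = 0.189). VCL, vinculin, which links talin to actin, stood at 50.7, 97.1 and 53.1 FPKM in the inhibitor libraries, against 70.3, 71.2 and 72.3 FPKM in DMSO (−0.15, adjusted p = 0.701). Replicates 1 and 3 were well below DMSO and replicate 2 well above it, and without replicate 2 VCL was called lower at −0.45 (adjusted p = 0.00218). TLN1, talin, which couples integrins to actin, stood at 24.6, 47.97 and 27.7 FPKM in the inhibitor libraries, against 25.3, 24.0 and 28.98 FPKM in DMSO (0.29, adjusted p = 0.454), with the groups overlapping and 0.00 (adjusted p = 0.975) without replicate 2.

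SRF, whose window holds a pair of the CArG boxes shown above, fell. The gene (ENSG00000112658, chromosome 6, 43171299 to 43181507) stood at 10.7, 8.82 and 12.8 FPKM in the inhibitor libraries, against 20.01, 20.3 and 25.4 FPKM in DMSO (log2 fold change −0.96, SE 0.17, adjusted p = 0.0151). The highest inhibitor library was well under the lowest DMSO library, and without replicate 2 the log2 fold change was −0.84 (adjusted p = 0.00507). It was called in 2 of 6 fits lacking 1 library each (adjusted p 0.00507 to 0.067). FILIP1L, a filamin-interacting protein whose gene overlaps CMSS1 on the opposite strand, was barely transcribed, at 0.06201, 0.215 and 0.114 FPKM in the inhibitor libraries, against 0.141, 0.139 and 0.1602 FPKM in DMSO, and its groups overlapped; it was not tested.

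**Figure D3:**
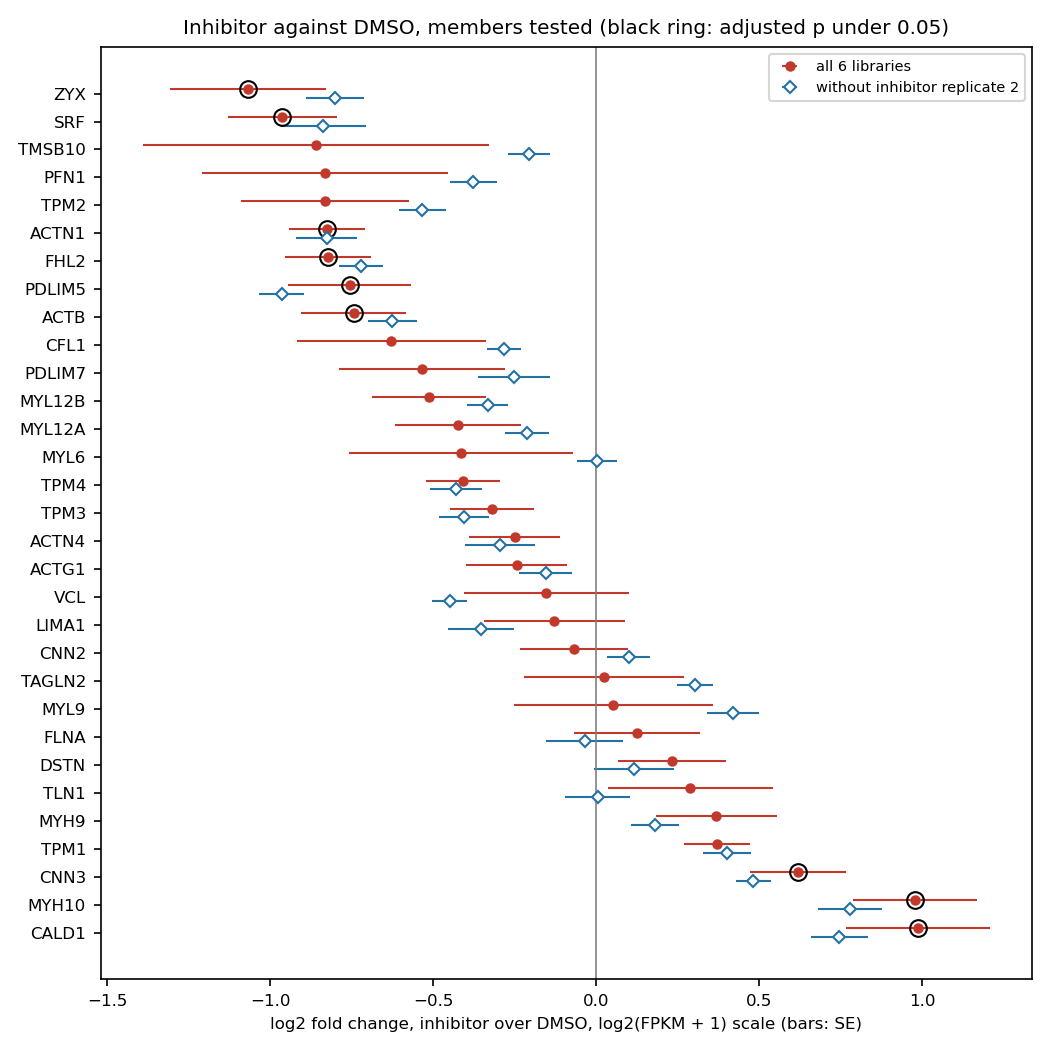
Log2 fold change of the inhibitor over DMSO with its SE for the 31 members tested, with all 6 libraries (filled circles) and without inhibitor replicate 2 (open diamonds); black rings mark the 9 calls with all libraries. With all libraries ZYX (−1.07) and SRF (−0.96) are lowest and CALD1 (0.99) and MYH10 (0.98) highest, without replicate 2 PDLIM5 (−0.96) is lowest and MYH10 (0.78) highest, and TMSB10, PFN1, MYL6 and MYL9 move most between the fits.

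The shift of inhibitor replicate 2 among the members followed transcript length. On the log2(FPKM + 1) scale it was −1.96 for TMSB10 relative to the mean of inhibitor replicates 1 and 3, −1.36 for PFN1 and −1.25 for MYL6, which have short transcripts, and 0.89 for VCL, 0.85 for TLN1 and 0.60 for MYH10, which have long ones. Its median was −0.84 over the 13 members with a principal transcript under 2000 bases in GENCODE 29, 0.00 over the 9 from 2000 to 4000 bases and 0.60 over the 9 of 4000 bases or more, and −0.31, −0.10 and 0.29 over all genes tested in the same classes. Across the 31 members, which share these 3 libraries, Pearson's r with log2 length was 0.79, and over 13569 genes tested it was 0.17. With the trend on transcript length removed from every library, a correction chosen after seeing the data, all 9 members kept their calls, TPM2 and MYL12B also fell and TPM1 also rose, giving 8 falls and 4 rises; 23.0% of all genes were called, 12.0% lower and 11.0% higher.

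**Figure D4:**
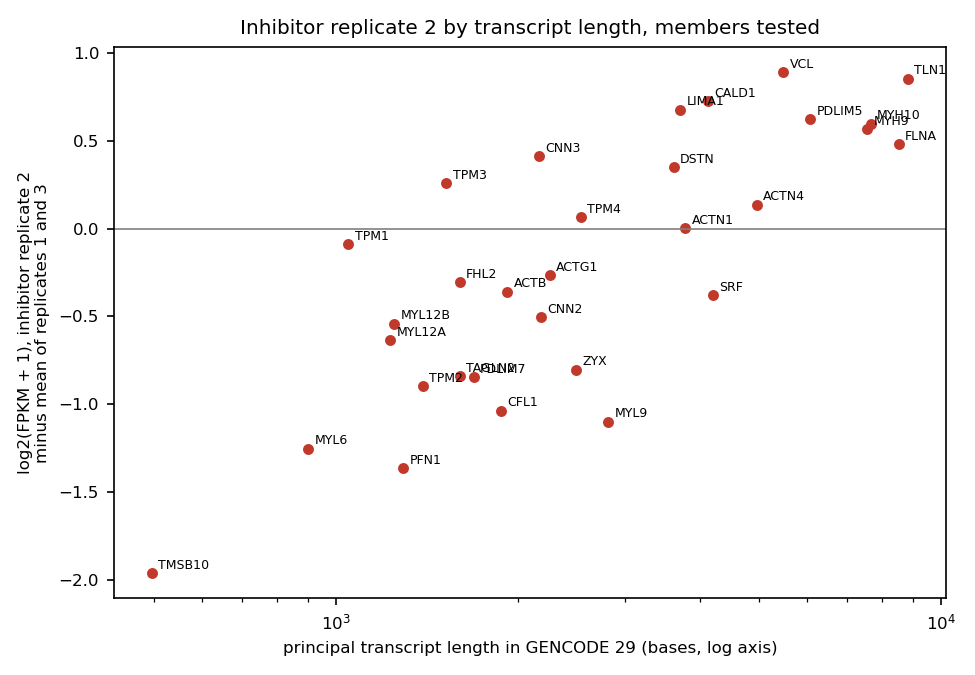
Inhibitor replicate 2 minus the mean of inhibitor replicates 1 and 3, on the log2(FPKM + 1) scale, against principal transcript length (log axis) for the 31 members tested. Short transcripts such as TMSB10 (−1.96) lie below 0 and long ones such as TLN1 (0.85) above.

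Other genes of the pathway were counted from lists chosen with earlier results of these data known. Of all genes tested 10.0% fell and 7.18% rose. Of 8 measured SRF co-regulators 1 fell and 0 rose, and the list median was −0.06. The fall was that of ELK1, which stood at 14.9 ± 2.58 FPKM with the inhibitor and 23.4 ± 0.995 FPKM in DMSO (SD, n = 3 each; −0.63, adjusted p = 0.0343). MRTFA averaged 6.73 ± 0.847 FPKM with the inhibitor and 6.36 ± 0.497 FPKM in DMSO and MRTFB 1.899 ± 0.502 FPKM with the inhibitor and 1.26 ± 0.0701 FPKM in DMSO (SD, n = 3 each), and neither was called (0.07, adjusted p = 0.735 for MRTFA and 0.35, adjusted p = 0.166 for MRTFB). Of 10 immediate early genes listed as SRF targets 6 fell and 0 rose, with a median of −1.06, among them FOSB (−1.55), CCNL1 (−1.29) and ATF3 (−1.22). The 4 not called were EGR1 (−0.38, adjusted p = 0.17), FOS (−0.46, adjusted p = 0.106), JUNB (−0.93, adjusted p = 0.0929) and IER2 (−0.48, adjusted p = 0.57). The sign of IER2 turned without inhibitor replicate 2 (0.21, adjusted p = 0.154). MCL1, a survival gene, averaged 84.6 ± 2.49 FPKM with the inhibitor and 169.9 ± 8.59 FPKM in DMSO (SD, n = 3 each). Of 17 other MRTF and SRF targets 9 fell and 0 rose, with a median of −0.57. Among them were the LIM protein gene CSRP1 (−1.31) and genes that YAP also drives, namely ANKRD1 (−1.82) and the matricellular CYR61 (−2.49) and CTGF (−1.70). ANKRD1 rested on 6, 21 and 12 reads in the inhibitor libraries, against 131, 124 and 107 reads in DMSO.

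Of 28 assembly, capping and severing genes 2 fell, ARPC4 of the Arp2/3 complex (−0.59) and WDR1, a cofactor of cofilin (−0.51), and 1 rose, gelsolin GSN (0.87), with a median of −0.07. These are 7.14% and 3.57% of the list, below the 10.0% and 7.18% of all genes that fell and rose. Of 25 further focal adhesion and stress fibre genes 2 fell, the docking proteins BCAR1 (−1.01) and NEDD9 (−1.19), and 2 rose (8% each), with a median of 0.06. The LIM protein AJUBA rose by 0.39, and the stress fibre protein SYNPO averaged 26.2 ± 2.37 FPKM with the inhibitor and 7.96 ± 0.453 FPKM in DMSO (SD, n = 3 each). Without inhibitor replicate 2 there were 3 falls and 1 rise for co-regulators, 8 and 0 for immediate early genes, and 12 and 0 for other targets. The assembly list then had 9 falls (32.1%) and 3 rises (10.7%), and focal adhesion 6 of each (24.0%), where 23.1% of all genes fell and 17.5% rose, so the focal adhesion falls were near the share of all genes. ELK1, ARPC4, WDR1, GSN, AJUBA and ATF3 were called in 1 to 3 of the 6 leave-one-out fits. The other genes named from these 5 lists as changed were called in all 6 fits.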

How the data were processed

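RNA-seq libraries, 6 in all, were directional, per the labels' protocols. The build is hg38, per the submitters' processing notes. For aligner, counter, its use of strand and annotation: not given in the sources used here. For each gene the authors deposited FPKM values (fragments per kilobase of listed gene length, scaled by 1 factor per library) with its length. The factor did not follow the recovered read totals alone. FPKM times length per read was 74.7 in inhibitor replicate 2 with 14087260 reads, and 68.3 in DMSO replicate 2 with 14201282 reads. How the factor was set is not stated. The listed lengths can exceed a single transcript (5863 bases for CFL1, against 1878 bases for its principal transcript), which lowers FPKM, so levels of different genes compare only roughly. Multiplied by length and 1 factor per library, 100% of FPKM values above 0 became whole reads within 0.01 reads, so depth is known and intervals cover counting error only. No replicate pair agreed within sampling noise (chi-square per degree of freedom of recovered reads 2.48 to 98.7).

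Genes reaching 1 FPKM in any 3 libraries or more were tested on log2(FPKM + 1) with limma 3.58.1 in R 4.3.3 (two-sided, mean-variance trend, no block), adjusted by Benjamini-Hochberg over all 13578 genes, threshold 0.05; fold changes on this scale understate changes of low genes. Groups and replicate numbers come from the titles. The members and lists were chosen with earlier results of these data known. All members are named. From other lists up to 4 called genes with the smallest adjusted p are named, or the 2 with the highest FPKM where none was called. Immediate early genes that were tested but not called are named too. Outside these rules MRTFA, MRTFB, MYOCD, DES, COL1A1, KRT8, KRT18, ARPC1B and ARPC2 are named, as are epithelial and fibroblast markers with few or 0 reads. Alternatives were a pseudocount of 0.1, no filter, a filter at 5 FPKM, quantile and TPM scaling, a replicate block, limma-voom on recovered reads, removal of a trend on listed length (loess, span 0.3) and leaving out each library; a trend on transcript length, alone or without inhibitor replicate 2, and the paralog shares were added after seeing the data. The fit was also run on simulated reads in which no library stood apart, so that run does not cover the spread of inhibitor replicate 2. Python 3.11.15 with numpy 2.4.6, pandas 2.3.3, scipy 1.17.1 and matplotlib 3.10.9 did the rest. CArG boxes were searched with no mismatch. The result of 1 further gene list is not reported here.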

Additional observations from a re-analysis of the deposited data

How the results depend on the processing

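Of 13578 genes tested 2339 were called with the inhibitor against DMSO, 4697 at an unadjusted p under 0.05. That count was 1533 with no filter, 1505 with a filter at 5 FPKM, 1478 with the replicate block, 5503 without inhibitor replicate 2 with the transcript length trend removed, and 478 to 5513 without 1 library; the low end is without DMSO replicate 1 and the high end without inhibitor replicate 2. For the members the rises were 0 and the falls 3 with no filter, where 31192 genes share the adjustment, 6 and 14 without inhibitor replicate 2 with the transcript length trend removed, and 0 to 6 and 0 to 14 without 1 library. With limma-voom on recovered reads 2554 genes were called, with 4 rises and 6 falls among the members. None of the 9 members called changed sign under the alternatives in which it was tested; MYH10 was not tested with the filter at 5 FPKM. PDLIM5 lost its call with quantile normalization (adjusted p = 0.0730), and CNN3 with the listed length trend removed (adjusted p = 0.0506).

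Some members that were not called changed sign, and the cause was not tested. FLNA was −0.025 with the transcript length trend removed, −0.038 with inhibitor replicate 2 also left out, and −0.036 to 0.27 without 1 library. TAGLN2 was −0.010 with TPM and −0.14 to 0.30 without 1 library. CNN2 was 0.10 with quantile normalization, 0.043 and 0.061 with the listed and the transcript length trend removed, 0.14 with inhibitor replicate 2 also left out, and −0.16 to 0.10 without 1 library. LIMA1 was 0.034 with quantile normalization and −0.35 to 0.037 without 1 library, and VCL was 0.019 and −0.45 to 0.011. MYL6 was 0.0085 without inhibitor replicate 2 with the transcript length trend removed and −0.62 to 0.0024 without 1 library, and MYL9 −0.14 to 0.42.

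Replicates with the same number deviated together at r = −0.02, 0.16 and 0.25 for numbers 1, 2 and 3. For numbers 2 and 3 this was the best match, whereas inhibitor replicate 1 correlated best with DMSO replicate 3 (0.09). Each deviation is from the mean of the same 3 libraries, so these values cannot settle whether the numbers pair the libraries. With the replicate block 4 members fell and 2 rose, against 872 and 606 of all 13578 genes. ACTB (adjusted p = 0.0555), PDLIM5 and CNN3 (adjusted p = 0.0619 each) were not called in that fit.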
